A study of Mus musculus with 6 samples.

Results

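The TCF/LEF transcription factors (Tcf7, Tcf7l1, Tcf7l2 and Lef1) and the Groucho co-repressors (Tle1, Tle2, Tle3 and Tle4) were described across 6 Affymetrix 3' expression arrays of mouse colonic mucosa. The probe sets were selected by the platform's gene symbol, and every probe set is given separately. Of the 8 genes 7 had a probe set, 18 of the 45101 probe sets in all. No probe set carried the symbol Tcf7 here, and Tcf7 has no value below. The family was also chosen on measured values, since an earlier comparison of the same arrays had placed Tcf7l1 among the genes over 2-fold apart. The differences between the groups are therefore a description of these arrays, with a standard error. Counts of members passing a threshold are printed beside those over all probe sets, and are not read as evidence about the members. All samples came from C57BL/6 mice with no treatment, and the labels give intestinal epithelial cells as the cell type. There were 3 arrays with the genotype p38a-knockout and 3 with the genotype wildtype, lettered A to C in each group. p38a is a stress-activated kinase encoded by Mapk14. The sources used here give neither the age of the mice nor how the gene was deleted. Whether each sample was a separate animal is not stated, so the SE and any p-value reflect how these samples varied, and that variation may be technical.

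TCF/LEF proteins bind DNA through a high-mobility-group domain and are the nuclear end of the canonical Wnt pathway. Without a Wnt signal they recruit Groucho proteins, which hold target genes silent, and with a signal beta-catenin takes the place of Groucho and turns the same targets on. Tcf7l2 is the main family member of the intestinal epithelium, where it is needed for the crypt progenitors. Tcf7l1 acts mostly as a repressor, and Tcf7 and Lef1 are abundant in T cells. The Tle proteins have no DNA-binding domain of their own and are also recruited by Hes and Runx factors.

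RefSeq promoter sequences (GRCm38.p6, 250 bases before to 50 after a start site) were matched by symbol for all 8 genes, 14 start sites in all. Shown are windows of 3 genes on which the results below turn, and the only window of the 14 with a match to the TCF core letters searched. The Tcf7l1 window lies at chr6:72788996-72789295 on the minus strand, and that of Tle4, the first of 2, at chr19:14598134-14598433 on the minus strand. The Tle3 window lies at chr9:61372116-61372415 and that of Lef1, the last of 4, at chr3:131156044-131156343, both on the plus strand. Each is printed 5′ to 3′, with matches to the TCF core in capitals.
Tcf7l1 promoter: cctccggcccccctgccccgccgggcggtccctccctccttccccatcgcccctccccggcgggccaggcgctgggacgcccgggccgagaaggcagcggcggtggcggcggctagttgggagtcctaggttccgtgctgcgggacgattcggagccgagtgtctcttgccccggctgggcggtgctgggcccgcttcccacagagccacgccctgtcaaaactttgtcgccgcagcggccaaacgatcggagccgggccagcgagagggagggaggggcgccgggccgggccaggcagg
Tle4 promoter: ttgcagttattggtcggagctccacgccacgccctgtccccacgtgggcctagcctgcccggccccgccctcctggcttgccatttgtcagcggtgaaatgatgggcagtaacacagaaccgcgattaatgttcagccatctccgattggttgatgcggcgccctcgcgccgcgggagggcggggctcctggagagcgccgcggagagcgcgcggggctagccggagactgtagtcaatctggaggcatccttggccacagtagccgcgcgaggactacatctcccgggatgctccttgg
Tle3 promoter: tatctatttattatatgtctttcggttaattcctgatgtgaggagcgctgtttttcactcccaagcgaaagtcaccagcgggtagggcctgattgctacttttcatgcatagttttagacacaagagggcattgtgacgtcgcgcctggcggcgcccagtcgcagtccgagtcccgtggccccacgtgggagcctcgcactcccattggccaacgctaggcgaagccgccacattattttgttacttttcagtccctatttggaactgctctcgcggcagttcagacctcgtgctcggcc
Lef1 promoter: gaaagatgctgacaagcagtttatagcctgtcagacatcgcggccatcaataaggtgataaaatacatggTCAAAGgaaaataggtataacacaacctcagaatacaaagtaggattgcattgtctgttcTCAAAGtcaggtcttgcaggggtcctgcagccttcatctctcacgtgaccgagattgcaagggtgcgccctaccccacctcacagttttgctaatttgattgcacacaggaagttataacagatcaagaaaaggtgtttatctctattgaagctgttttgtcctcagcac

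The TCF core searched was CTTTGA on both strands, and the AP-1 site TGANTCA, which reads the same on both strands. The Lef1 window held 2 TCF core matches on the minus strand, at 180 and 120 bases before the start. No other window of the 14 held the letters CTTTGA, and none held the AP-1 letters. Other forms of the TCF site were not searched, so windows without a match may still hold one. Of all 32851 promoter windows of that length, 16% held the TCF core and 7.8% the AP-1 letters. The members' windows were rich in G and C, with a median of 66.2% against 52.7% over all windows, and 11 of 14 lay above that median. Start sites of 1 gene can overlap, as 2 of Lef1 do, so the windows are not independent.

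The arrays differed in ways that moved with the genotype label. As deposited, the trimmed mean signal was 192 to 222 in the arrays labelled knockout and 117 to 188 in wild type, with wild type B the brightest of its group. The 3' to 5' signal ratio of the Gapdh control, which rises as RNA degrades, was 0.859 to 0.954 in the arrays labelled knockout. It was 1.10, 0.989 and 1.45 in wild-type arrays A to C. Wild type B correlated best with the array labelled knockout A (r = 0.984 across probe sets, which are not independent replicates) rather than with its own group. The brightest Mapk14 probe set read 9.72, 9.91 and 9.73 in arrays A to C labelled knockout and 9.31, 9.44 and 9.37 in wild-type arrays A to C, and the groups did not overlap. Its other probe sets differed by -0.07 to 0.62 and overlapped. The signal of the targeted gene thus went against the label on the brightest probe set, although a probe set reading transcript beyond the deletion would not test the knockout, and where the deletion lies was not used here. For that reason "the arrays labelled knockout" is used below. The colonic epithelium markers were bright on all arrays, with 11 of 11 named genes above the filter and a mean of 12.4 to 12.5. Levels here are log2(signal + 16) after quantile normalization, called log2 levels below, and differences are the arrays labelled knockout minus wild type. The pseudocount of 16 makes changes of dim probe sets look smaller.

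Of the 18 member probe sets 15 passed a filter at the 40th percentile of the mean level, 7 of TCF/LEF genes and 8 of Groucho genes. limma called 0 of these 15 at an adjusted p of 0.05 over all 27002 probe sets tested, of which 0% were called. At an unadjusted p under 0.05 there were 2 of 15, where 3.53% of all probe sets tested passed. These were 1 probe set of Tcf7l1, on the higher side, and 1 of Tle3, on the lower side. None of the 15 separated the groups without overlap, against 8.74% of all probe sets tested, 4.75% with all arrays labelled knockout above and 4% with all below. The members' median difference was -0.13, and 5 of 15 were higher, while the median over all probe sets tested was 0.02 and 53.6% were higher. Because the contrast itself led to the choice of this family, nothing is read from these counts.

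**Figure D1:**
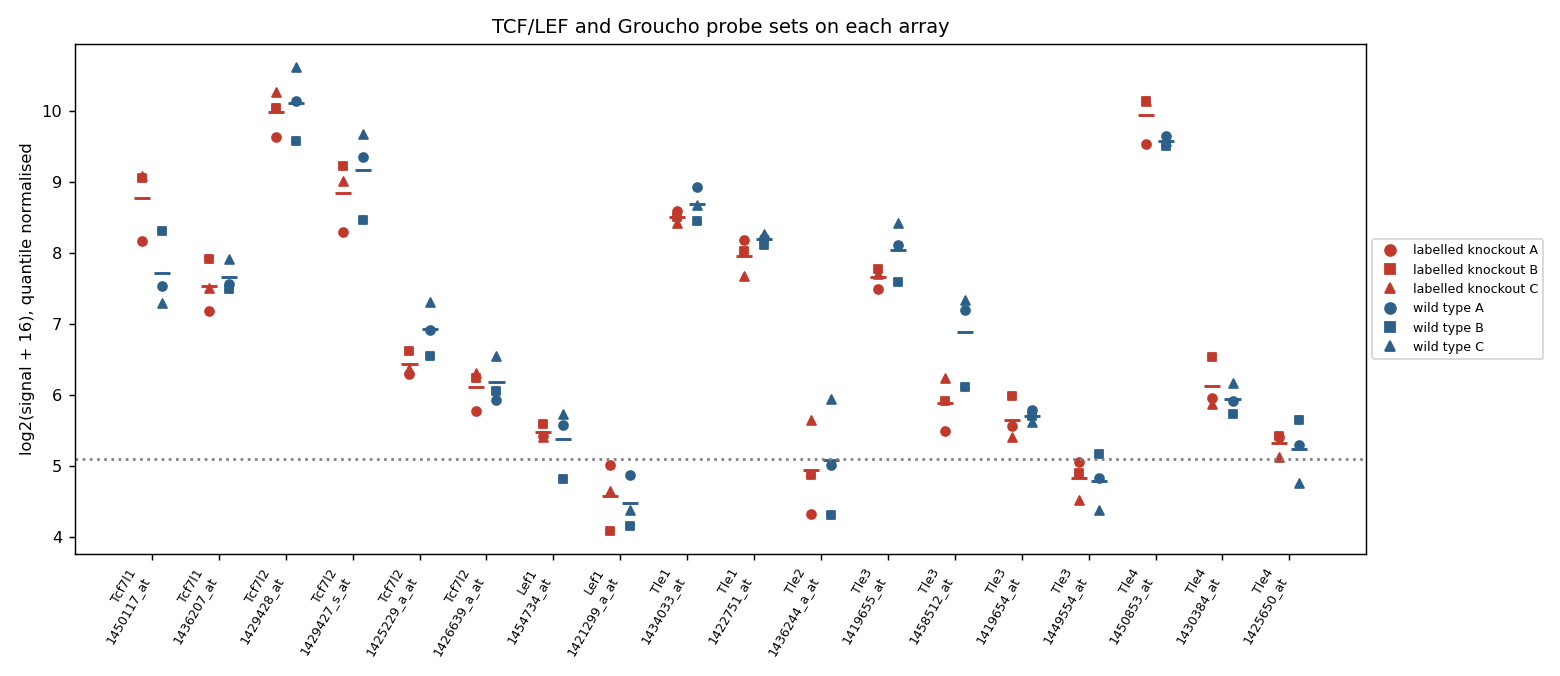
Log2 level (quantile-normalised signal plus 16) of the 18 TCF/LEF and Groucho probe sets on each array, red for the arrays labelled knockout and blue for wild type, with the symbol shape giving the replicate letter, short lines the group means and the dotted line the filter at 5.11. The groups overlap on every probe set, and the widest gaps between the means are at Tcf7l1 1450117_at and Tle3 1458512_at.

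Tcf7l1, the family's repressor-type member, gave the highest difference of the members on 1 of its 2 probe sets. On 1450117_at the log2 level was 8.18, 9.06 and 9.08 in arrays A to C labelled knockout and 7.53, 8.32 and 7.30 in wild-type arrays A to C. Wild type B read above the array labelled knockout A, so the groups overlapped, while wild type A and C were the lowest of the 6. The group means were 8.77 ± 0.52 and 7.72 ± 0.53 (SD, n = 3 each), a difference of 1.05 (SE 0.34), or 2.08-fold. In the signals as deposited this probe set read 358, 579 and 616 in the arrays labelled knockout and 136, 332 and 101 in wild type, with no overlap. On those unscaled signals 24.1% of all probe sets tested and 5 of the 15 members did not overlap. Against wild type A and C the difference was 1.36, and against wild type B it was 0.45. With the Gapdh ratio as covariate it was 0.52, and the part of RNA quality in the difference was not tested. Over the 18 alternative settings the value ranged from 0.45 to 1.505 and kept its sign.

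The other Tcf7l1 probe set, 1436207_at, did not show that difference. It read 7.18, 7.92 and 7.51 in arrays A to C labelled knockout and 7.57, 7.50 and 7.93 in wild-type arrays A to C. The lowest value was in the array labelled knockout A and the highest in wild type C and the array labelled knockout B, so the groups overlapped throughout. The difference was -0.13 (SE 0.24). Its sign turned in 7 of 18 alternative settings, with values from -0.32 to 0.34, and it was positive on the signals as deposited and on centred medians. Relative to the median of all probe sets it was -0.15 in the main setting and -0.07 (log2) on the signals as deposited. The position of either probe set in the transcript was not used here.

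Tcf7l2, the main TCF factor of the intestinal epithelium, was measured by 4 probe sets, all above the filter. On 1429428_at the log2 level was 9.64, 10.05 and 10.27 in arrays A to C labelled knockout and 10.15, 9.59 and 10.62 in wild-type arrays A to C. Wild type B and the array labelled knockout A were the lowest, wild type C the highest, and the difference was -0.14 (SE 0.27). On 1429427_s_at, whose suffix marks possible reading of related transcripts, the levels were 8.31, 9.23 and 9.02 against 9.36, 8.47 and 9.68. The same arrays were low and high there, and the difference was -0.32 (SE 0.35).

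The probe set 1425229_a_at, whose suffix marks several transcripts of 1 gene, gave the lowest Tcf7l2 difference. Its levels were 6.31, 6.62 and 6.38 in arrays A to C labelled knockout and 6.92, 6.55 and 7.31 in wild-type arrays A to C, a difference of -0.49 (SE 0.24). Wild type A and C lay above all the others, and wild type B lay among the arrays labelled knockout. The fourth, 1426639_a_at, read 5.78 to 6.31 against 5.93 to 6.55, with a difference of -0.07 (SE 0.25). All 4 were thus lower in the main setting, but 3 of them turned positive on the signals as deposited, against wild type B alone and with the Gapdh ratio as covariate. Relative to the median of all probe sets, the 4 differences stayed between -0.49 and -0.03 on the signals as deposited. With wild type B as sole control they were 0.40, 0.38, -0.12 and 0.05 in the order given.

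Lef1, abundant in T cells, had a mean near the filter. Its probe set 1454734_at read 5.43, 5.60 and 5.42 in arrays A to C labelled knockout and 5.58, 4.82 and 5.74 in wild-type arrays A to C. Wild type B was the lowest of the 6, the other wild-type arrays lay among or above those labelled knockout, and the difference was 0.10 (SE 0.27). Without wild type B it was -0.18, and against wild type B alone it was 0.66, so its sign rested on 1 array. The second Lef1 probe set, 1421299_a_at, lay below the filter, at 4.09 to 5.02 against 4.16 to 4.88.

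T cell markers differed between the same arrays. All 9 T cell genes above the filter, of 13 with a named probe set, had lower means in the arrays labelled knockout, with a median difference of -0.38. This direction rested on wild type A and C. Against these the median was -0.78 and all 9 were lower, while against wild type B alone it was 0.29, with 8 of 9 higher and only Cd3e lower (-0.76). Summed over all 13 named genes, the normalised signal was 499.6 to 976.8 in the arrays labelled knockout and 609.9 to 1801 in wild type, lowest in the array labelled knockout A and highest in wild type C. Cd4, Cd2, Cd6 and Cd28 lay below the filter. The summed signal of the 6 named B and plasma cell genes was 1003 to 3865 against 579.8 to 4225, lowest in wild type B, with Cd79a and Pax5 below the filter. Jchain, by far the brightest of them, dominates that sum. All 4 genes above the filter were lower against wild type A and C (median -0.56). Against wild type B alone all 4 were higher (median 0.98). In RNA of a mucosa sample, fewer cells of a type and less RNA per cell cannot be told apart. The part of lymphocytes in the Lef1, Tcf7l2 and Tle3 values was not tested.

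Among the Groucho genes, Tle4 stood on the higher side and Tle3 on the lower. The brightest Tle4 probe set, 1450853_at, had log2 levels of 9.54, 10.14 and 10.15 in arrays A to C labelled knockout and 9.66, 9.51 and 9.58 in wild-type arrays A to C. The arrays labelled knockout B and C lay above all others, while A lay within the narrow wild-type range. The means were 9.94 ± 0.35 and 9.58 ± 0.07 (SD, n = 3 each), a difference of 0.36 (SE 0.20), or 1.28-fold. The deposited signals of this probe set were 970, 1239 and 1316 against 635, 790 and 486, with no overlap, where 24.1% of all probe sets tested had none. Unlike Tcf7l1 1450117_at, its difference was no smaller against wild type B alone (0.43) or with the Gapdh ratio as covariate (0.38). Over the 18 alternative settings it ranged from 0.25 to 0.88, against a shift of 0.40 in the median of all probe sets on the signals as deposited.

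The other Tle4 probe sets were dimmer and gave smaller differences. On 1430384_at the levels were 5.96, 6.54 and 5.87 against 5.92, 5.74 and 6.17, a difference of 0.18 (SE 0.24), which read -0.03 without the array labelled knockout B. On 1425650_at they were 5.42, 5.42 and 5.14 against 5.30, 5.65 and 4.76, a difference of 0.09 (SE 0.26), which turned to -0.33 against wild type B alone. Relative to the median of all probe sets 1425650_at read -0.15 on the signals as deposited.

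Tle3 was measured by 4 probe sets, of which 3 passed the filter. On 1458512_at the log2 level was 5.49, 5.92 and 6.24 in arrays A to C labelled knockout and 7.21, 6.11 and 7.34 in wild-type arrays A to C. Wild type A and C lay above all other arrays, and wild type B lay below the array labelled knockout C. The means were 5.89 ± 0.38 and 6.89 ± 0.68 (SD, n = 3 each), a difference of -1.001 (SE 0.35), the lowest among the members. It was -1.39 against wild type A and C, -0.23 against wild type B alone, and -0.44 with the Gapdh ratio as covariate. It stayed negative in all 18 alternative settings, including -0.61 on the signals as deposited.

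The brightest Tle3 probe set, 1419655_at, read 7.50, 7.78 and 7.71 in arrays A to C labelled knockout and 8.12, 7.60 and 8.43 in wild-type arrays A to C. Again wild type A and C were the highest, and the difference was -0.39 (SE 0.24). It turned to 0.10 on the signals as deposited, to 0.06 against wild type B alone and to 0.08 with the Gapdh ratio as covariate. On 1419654_at the levels were 5.57, 5.99 and 5.42 against 5.79, 5.70 and 5.63, with a difference of -0.05 (SE 0.22). The last Tle3 probe set, 1449554_at, lay below the filter at 4.53 to 5.06 against 4.38 to 5.17.

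Tle1 gave small differences on both of its probe sets. Its probe set 1434033_at read 8.59, 8.52 and 8.42 in arrays A to C labelled knockout and 8.93, 8.46 and 8.68 in wild-type arrays A to C, a difference of -0.18 (SE 0.19). On 1422751_at the levels were 8.19, 8.03 and 7.68 against 8.21, 8.12 and 8.27, a difference of -0.23 (SE 0.20). Both turned positive on the signals as deposited and with array medians centred, to 0.34 and 0.27 in the first of these. Relative to the median of all probe sets they were -0.06 and -0.13 there. The only Tle2 probe set, 1436244_a_at, lay below the filter, from 4.33 to 5.65 against 4.31 to 5.95, with the highest values in both arrays lettered C.

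**Figure D2:**
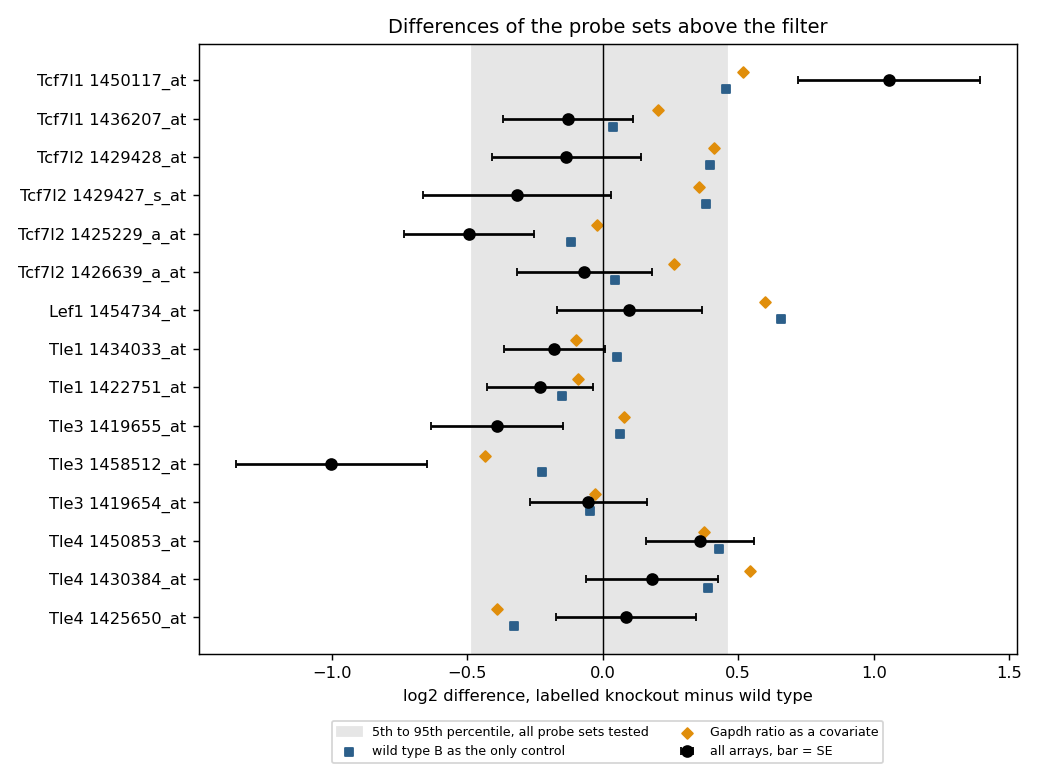
Log2 difference (arrays labelled knockout minus wild type) of the 15 probe sets above the filter. Black points with bars give the value over all arrays and its SE, blue squares wild type B as sole control, orange diamonds the Gapdh ratio as covariate, and the grey band the 5th to 95th percentile of all probe sets tested (-0.48 to 0.46). Tcf7l1 1450117_at and Tle3 1458512_at move towards 0 in both settings, and Tle4 1450853_at reads 0.36, 0.43 and 0.38.

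**Figure D3:**
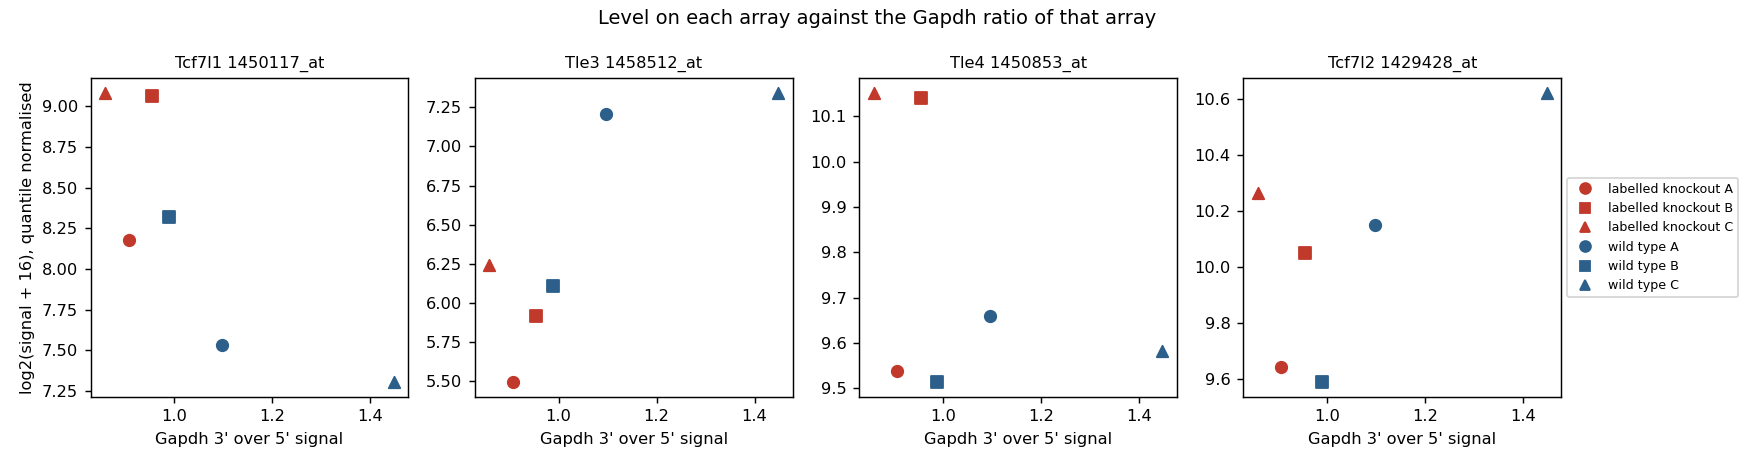
Log2 level of 4 member probe sets (y axis, a separate scale in each panel) against the Gapdh 3' to 5' ratio of the same array (x axis, no unit), red for the arrays labelled knockout and blue for wild type. Wild type A and C, at ratios of 1.10 and 1.45, have the lowest Tcf7l1 and the highest Tle3 1458512_at levels, while wild type B, at 0.989, lies near the array labelled knockout A in the Tcf7l1, Tle4 and Tcf7l2 panels.

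A ratio of 2 probe sets of the same gene within an array shows unequal change of the 2. For bright probe sets it depends little on the scaling between arrays. With a dim probe set the pseudocount of 16 makes it depend on array brightness. This measure was chosen after the values above were seen. It was taken on the deposited signals plus 16, for the 14 pairs of member probe sets above the filter. In 3 of the 14 pairs the groups did not overlap, against 10.7% of all 17194 same-gene pairs on the arrays. Many of the pairs share a probe set, and Tcf7l1, which led to the choice of the family, is among these 3. Nothing is read from this count. For Tcf7l1 1450117_at over 1436207_at the log2 ratio was 1.09, 1.15 and 1.57 in arrays A to C labelled knockout and -0.03, 0.88 and -0.55 in wild-type arrays A to C. Wild type B lay closest to the arrays labelled knockout, and the difference was 1.17, or 0.39 against wild type B. The ratio was lowest in wild type C and A, the arrays with the highest Gapdh ratios (1.45 and 1.10). The part of RNA quality in the ratios of these pairs was not tested.

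For the Tcf7l2 pair 1429428_at over 1425229_a_at the ratio was 3.59, 3.44 and 3.90 in arrays A to C labelled knockout and 3.20, 3.18 and 3.16 in wild-type arrays A to C. The wild-type arrays were within 0.02 (SD) of each other despite their unequal brightness, and the difference was 0.46, as large against wild type B alone (0.46). For the Tle4 pair 1450853_at over 1425650_at the ratio was 4.46, 4.76 and 5.14 against 4.17, 4.06 and 4.24. Wild type B was the lowest of the 6 there, and the difference was 0.63 over all arrays and 0.73 against wild type B. The deposited signals of 1425650_at were 28.8, 30.3 and 21.7 against 20.2, 32.5 and 10.6, near the pseudocount. The separation of this Tle4 pair therefore depends on the pseudocount, and without it the ratios overlap. In the other 11 pairs, among them all 3 of Tle3 and the 1 of Tle1, the groups overlapped.

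**Figure D4:**
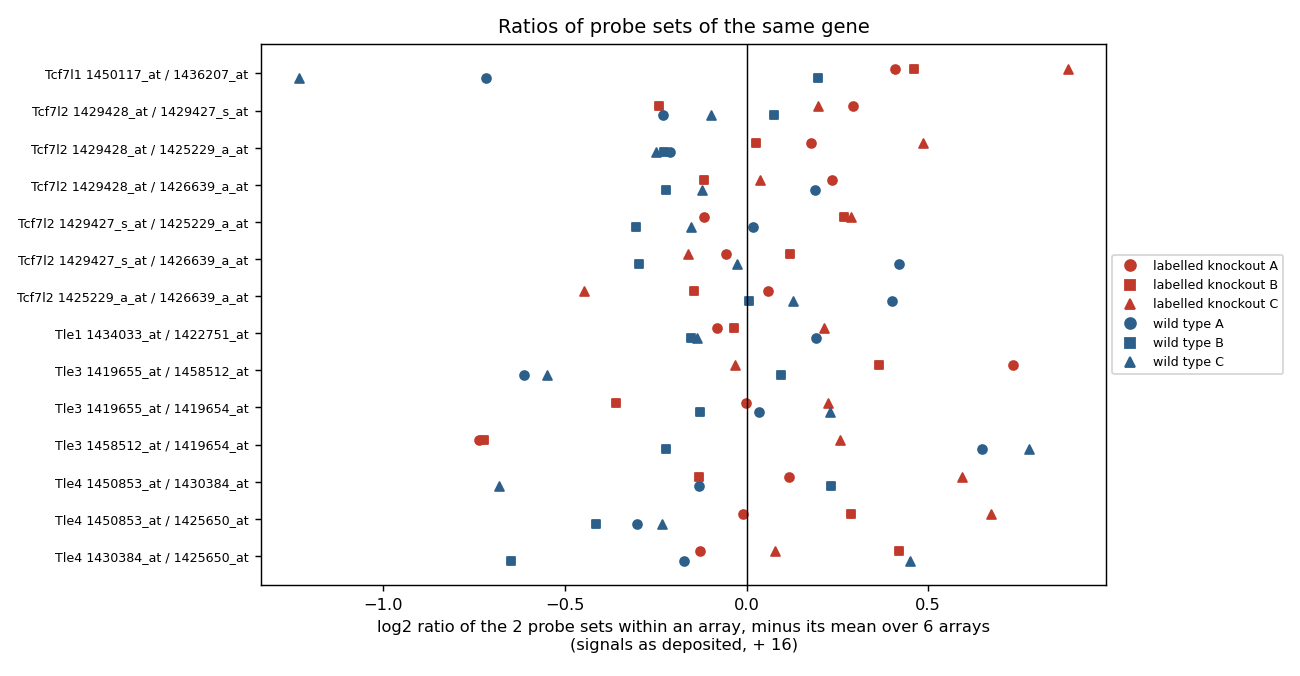
Log2 ratio of 2 probe sets of the same gene within each array, centred on its mean over the 6 arrays, for the 14 member pairs (signals as deposited plus 16), red for the arrays labelled knockout and blue for wild type. The groups are apart for Tcf7l1 1450117_at over 1436207_at, Tcf7l2 1429428_at over 1425229_a_at and Tle4 1450853_at over 1425650_at. In the Tle4 pair the dimmer probe set lies near the pseudocount, on which its separation depends.

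The rest of the Wnt pathway was described with 8 lists, each gene by its brightest probe set. Of 98 listed genes 96 had a named probe set, and 73 passed the filter. limma called 0 of the 73 in either direction, and 2 had an unadjusted p under 0.05, where 3.88% of 12437 genes did. The median difference was 0.08, with 45 higher and 28 lower, against 0.02 over all genes. Against wild type B alone the median of the 73 was -0.04. In 5 of the 73 the groups did not overlap, against 9.06% of genes.

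Upstream, 3 of 11 Wnt ligand genes passed the filter, with a median of -0.04. Wnt11 stood at -0.16 (SE 0.24), Wnt6 at 0.07 (SE 0.20) and Wnt5a at -0.04 (SE 0.36). Of the R-spondins, which raise Wnt signalling at the membrane, Rspo1 stood at -0.73 (SE 0.41), with 4.18 in the array labelled knockout A and 5.45 to 6.05 in the other arrays. Rspo2 stood at 0.08 (SE 0.23). Among 16 receptor and co-receptor genes 11 were higher, with a median of 0.13, but 7 of 16 against wild type B alone (median -0.09). Fzd8, a Frizzled receptor gene, read 6.62, 6.01 and 6.53 in the arrays labelled knockout and 5.61, 6.03 and 5.66 in wild type, a difference of 0.62 (SE 0.24), and was 1 of the 2 genes with an unadjusted p under 0.05. Fzd4 stood at 0.50 (SE 0.25) and Fzd7 at 0.46 (SE 0.33), and against wild type B these read 0.008 and -0.11. Lgr5, one of the R-spondin receptor genes and a crypt stem cell gene, stood at -0.43 (SE 0.35). Of the secreted inhibitors 4 of 10 passed the filter, with a median of -0.19, or 0.15 against wild type B alone. They were Sfrp1 at -0.39 (SE 0.43), Notum at 0.37 (SE 0.21), Sfrp4 at -0.30 (SE 0.26) and Sfrp5 at -0.07 (SE 0.19).

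Of 11 genes of beta-catenin, Dishevelled and the destruction complex, which marks beta-catenin for breakdown, 6 were higher and 5 lower, with a median of 0.04. Ctnnb1, the beta-catenin gene, read 12.95, 12.94 and 13.04 in the arrays labelled knockout and 13.28, 13.06 and 13.25 in wild type. The groups did not overlap, and the difference was -0.22 (SE 0.10). Dvl1 stood at -0.35 (SE 0.26), Dvl2 at 0.24 (SE 0.21) and Axin2, a destruction complex gene that is itself a Wnt target, at 0.21 (SE 0.20). Against wild type B alone the list's median was 0.03, with 6 higher and 5 lower. Dvl1 and Axin2 turned to 0.20 and -0.04 there, while Dvl2 (0.026) and Ctnnb1 (-0.085) kept their sign. Of 18 nuclear partners of TCF and Groucho 12 were higher, with a median of 0.02, and against wild type B alone 8 of 18 (median -0.06). The extremes were Cby1, which encodes a beta-catenin antagonist, at 0.62 (SE 0.36) and Bcl9, a beta-catenin co-activator gene, at -0.40 (SE 0.33). Hdac2, a histone deacetylase gene, stood at 0.37 (SE 0.36) and Chd8 at -0.30 (SE 0.22). Against wild type B Cby1 read -0.21 and Hdac2 -0.27.

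The TCF and beta-catenin target genes of the crypt had a median of 0.21, with 9 of 13 higher, whereas against wild type B alone 10 of 13 were lower (median -0.16). Ascl2, a stem cell transcription factor gene, stood at 0.51 (SE 0.37), Myc at 0.47 (SE 0.41), Tiam1 at 0.45 (SE 0.25) and Nkd1, a feedback inhibitor gene, at -0.45 (SE 0.34). For Tiam1 the groups did not overlap. Against wild type B, Ascl2 read -0.17 and Myc -0.20, while against wild type A and C they read 0.85 and 0.81. Nkd1 turned to 0.225 against wild type B and read -0.79 against wild type A and C. Tiam1 kept its sign, at 0.12 and 0.62. The mean log2 level of these 13 was 7.11 to 7.49 in the arrays labelled knockout, 7.48 in wild type B, and 7.26 and 6.78 in wild type A and C. Of 8 DNA-binding factors that recruit Groucho 5 were higher, with a median of 0.10, and 3 of 8 against wild type B alone (median -0.11). Prdm1, a transcriptional repressor gene needed for plasma cell differentiation, gave the largest difference in size of the 73 genes and was the other with an unadjusted p under 0.05. It read 6.37, 6.68 and 6.44 in the arrays labelled knockout and 8.39, 6.79 and 8.60 in wild type. The groups did not overlap, the difference was -1.43 (SE 0.43), and against wild type B it was -0.30. Runx3 stood at -0.34 (SE 0.26), Hes6 at 0.32 (SE 0.19) and Foxa2 at 0.27 (SE 0.31).

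**Figure D5:**
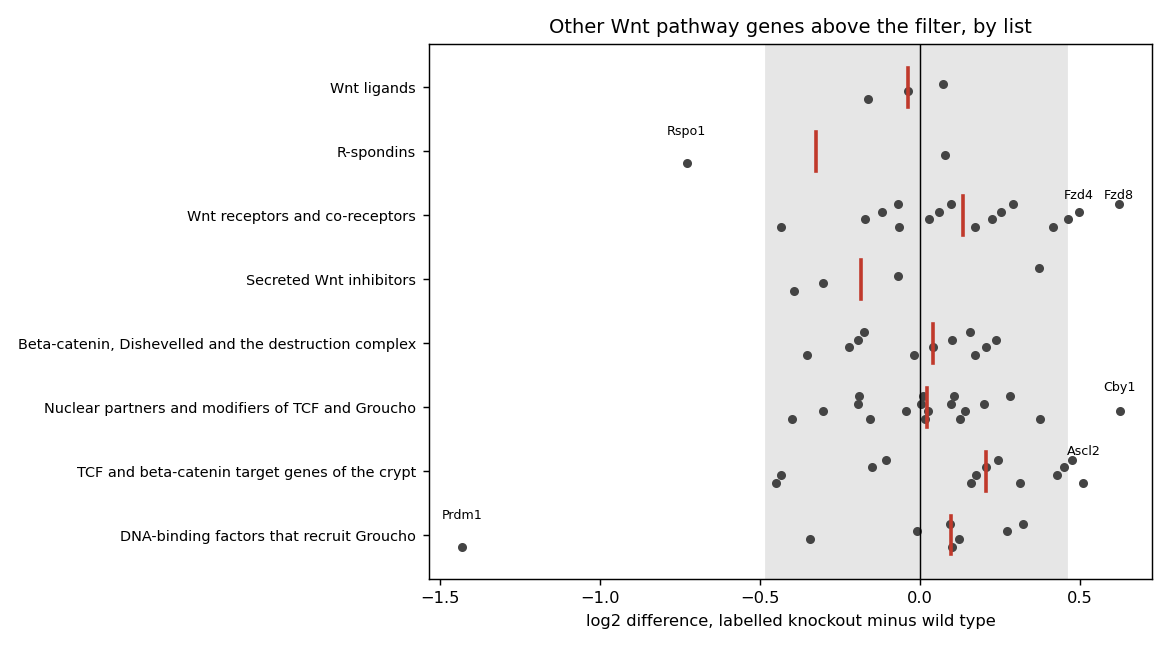
Log2 difference (arrays labelled knockout minus wild type) of the other Wnt pathway genes above the filter, 1 point per gene (brightest probe set), by list, with a red line at each list's median and the grey band at the 5th to 95th percentile of all probe sets tested (-0.48 to 0.46). A gene on 2 lists is drawn in both. Names mark genes beyond 0.48 in size, among them Prdm1 at -1.43, Rspo1 at -0.73 and Fzd8 and Cby1 at 0.62.

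For each member whose brightest probe set varied with an SD of at least 0.3 over the arrays, the 2 genes with the closest centred profile over the 6 arrays were taken from 12431 genes, by root mean square difference. For Tcf7l1 these were Timp4, a metalloproteinase inhibitor gene (0.18), and Irs1, an insulin receptor substrate gene (0.21). Irs1 read 7.05, 7.52 and 7.92 in arrays A to C labelled knockout and 6.66, 7.33 and 6.17 in wild-type arrays A to C, again with wild type B among the arrays labelled knockout. For Tcf7l2 they were Igsf3 (0.07) and Selenop (0.07), a selenium transport protein gene, which like Tcf7l2 was lowest in the array labelled knockout A and wild type B. For Lef1 they were Ifi203 and Klf6, for Tle3 Slamf7 and Kmt2d, and for Tle4 Tgfb1 and Cers4. The closest genes are always close when many are searched, so this is a description of the profiles.

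Other cell types' markers gave further values beside Tcf7l1. Sums here cover all named genes of a list. For the 8 smooth muscle genes the summed signal was 720.3, 313.7 and 398.5 in arrays A to C labelled knockout and 208 to 326.6 in wild type, with Myh11, Cnn1 and Synpo2 below the filter. This sum was highest in the array labelled knockout A, where Tcf7l1 1450117_at was the lowest of its group. Of the 5 smooth muscle genes above the filter 4 were higher, with a median difference of 0.56. Against wild type B alone 4 of 5 were higher (median 0.72). The fibroblast sum was 455.9 to 2144 against 1093 to 1571, with Pdgfra below the filter. For macrophages and dendritic cells it was 1354 to 1835 against 1422 to 1606, with Itgam below the filter. Cd14, the brightest of these genes (10.45 in wild type B), dominates that sum. Of the 6 genes above the filter 5 were higher against wild type B alone (median 0.46). Against wild type A and C 4 of the 6 were lower (median -0.44). For the endothelium the sum was 89.7 to 113.9 against 114.8 to 145.9, with Pecam1, Cdh5 and Emcn below the filter. On each of the 2 endothelium genes above the filter the groups overlapped. The sum for enteric neurons and glia was 91 to 120.1 against 97.7 to 108.3, with Elavl4, Uchl1 and S100b below the filter. The pancreatic sum was 817.5 in wild type B and 93.5 to 111.8 on the other arrays, with 5 of its 7 named genes, Cpa1, Cpb1, Cel, Cela2a and Ctrb1, below the filter. The part of these cells in the member values was not tested.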

How the data were processed

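RNA of 6 colonic mucosa samples was amplified from the 3' end by in vitro transcription (labels' protocols). The authors deposited 1 linear intensity per probe set and array, which the submitters' processing notes attribute to MAS5. The sources used here do not give its version, target or scaling. The array means differ, so arrays were quantile normalised as log2(signal + 16). This removes overall differences between arrays and leaves unequal effects of RNA quality.

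The tests covered 27002 probe sets, after removal of 64 controls and of those below the 40th percentile of the mean (a signal of about 18.4). Symbols came from the platform annotation, with 34945 probe sets of 1 symbol, 932 of several and 9160 of none here. The 2 groups were set against each other in limma 3.58.1 (R 4.3.3), using lmFit and a trended eBayes, with Benjamini-Hochberg adjustment at 0.05 over all probe sets tested. The steps were checked on simulated data with independent noise and planted shifts larger than any member difference. The simulated arrays did not differ in brightness or RNA quality, so the check does not cover such differences. The number of arrays limits the precision.

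The members and lists were chosen with earlier results of these data known. Every member probe set and Mapk14 is named. Of each pathway list up to 4 genes with the largest difference in size among those above the filter are named, with the brightest probe set of each gene. The 2 genes of closest profile are named for members with an SD of at least 0.3. Ctnnb1, Prdm1, Fzd8 and Tiam1 fell under this rule. Cell type markers are given as sums, with directions for the T cell, B and plasma cell, macrophage and dendritic cell, and smooth muscle genes. Of the listed genes 10 had no named probe set. Alternatives were 18 settings of scaling, pseudocount (1 and 64), filter (none and the 60th percentile), variance model, array weights, replicate block, arrays left out, wild type B as sole control, and the Gapdh ratio as covariate.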

Additional observations from a re-analysis of the deposited data

How the results depend on the processing

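limma called 0 of the member probe sets under all 18 alternative settings, 11 to 18 of which were tested, and the smallest adjusted p was 0.0601, with array weights. Unadjusted, 0 to 6 of the members had a p under 0.05, 6 with array weights and 5 without wild type B. Over all probe sets that count was 952 in the main setting, 4314 on the signals as deposited, 5745 with array weights, 4368 without wild type B, 1913 with no filter and 615 with the filter at the 60th percentile. The count over all probe sets was 0 in the main setting and 1 on the signals as deposited, 1 with array medians centred, 74 with array weights and 2 against wild type B alone, where the lone control is assumed to vary like the other group. With 1 array left out it ranged from 0 to 2, with 2 (Mt1 and Ak4) without wild type B and 1 (Mt1) without wild type C. The cause was not tested. Of the Wnt pathway genes 1, Prdm1, was called with array weights and 0 in every other setting, where with 1 array left out the range was 0 to 0. Array weights were estimated gene by gene, since the default estimate did not converge.

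The replicate letter is used only as a label here. Same-lettered arrays deviated together in 1 of 3 pairs (correlations of -0.07, -0.16 and 0.43 for A, B and C). Deviations from a mean of 3 arrays constrain one another, so these correlations cannot show whether the letters mark a pairing. With the replicate block limma called 1 probe set of all (Mt1), 0 of the members and 0 of the pathway genes.

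The median of all probe sets shifted to 0.40 on the signals as deposited and to 0.165 with array medians centred, and unadjusted p under 0.05 divided into 4248 higher and 66 lower on the signals as deposited, 727 against 290 with centred medians and 460 against 492 in the main setting. In these 3 settings 13, 10 and 5 of the 15 members were higher, but 3, 3 and 5 lay above the median of all probe sets. With the Gapdh ratio as covariate 9 of 15 were higher (median 0.20 against -0.01), and against wild type B alone 10 of 15 (median 0.05 against -0.01).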

Other observations

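Beyond the members, Tle5 and Tle6 are relatives of the Groucho proteins, and Tle5 lacks the repeats that bind many partner factors. Tle5 1420619_a_at read 8.03, 8.19 and 7.59 in arrays A to C labelled knockout and 7.89, 8.03 and 7.85 in wild-type arrays A to C. The groups overlapped, and the difference was 0.01 (SE 0.21). Tle6 1448727_at read 5.19, 5.42 and 5.78 against 5.34, 5.72 and 4.49, a difference of 0.28 (SE 0.33), with wild type C the lowest of the 6.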
